A study of Mus musculus with 9 samples.

Results

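The interferon-induced transmembrane proteins are a family of small membrane proteins, and their mouse genes were followed here in leukaemia cells carrying short hairpin RNAs against Zeb1, a zinc-finger transcription factor. The members were listed by gene symbol as Ifitm1, Ifitm2, Ifitm3, Ifitm5, Ifitm6 and Ifitm10, and the probe set with the highest mean was to stand for each gene. Of the 6 genes listed, 5 were measured, each by 1 probe set, out of 19505 named genes and 22206 probe sets in all. Ifitm10 matched no probe set by symbol, older symbol or gene identifier, and was not analysed here. The members had been chosen with the comparisons of these arrays in view, so their levels and differences are a description and carry no test. Their differences were read from the same contrasts that led to the choice.

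The cells were C1498, a mouse leukaemia line grown in culture. In all 3 groups they had been infected overnight with lentivirus that also carried green fluorescent protein (GFP), and GFP-positive cells were isolated 2 weeks later. The Scr group carried a negative control construct, the shZeb1_C group a hairpin of sequence C and the shZeb1_D group a hairpin of sequence D. Each group had 3 arrays, numbered 7 to 9 for Scr, 10 to 12 for shZeb1_C and 13 to 15 for shZeb1_D. All groups came from the 1 cell line, and the sources used here do not name the promoter that drives the hairpins. Whether the 3 arrays of each group stem from separate infections is not in the labels. P-values therefore set group differences only against the spread among these arrays. That spread may be technical, and the p-values are not extended to new infections.

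Ifitm1, Ifitm2 and Ifitm3 encode antiviral factors that are known to be induced by interferons and to hinder the fusion of viral and cellular membranes. Interferons bind receptors that act through Janus kinases. The response reaches genes through short DNA elements, the interferon-stimulated response element and the GAS element. Ifitm3 acts mainly in endosomes and Ifitm1 mainly at the cell surface. Ifitm5 is known from osteoblasts, where mutations of its human counterpart cause a brittle bone disorder. Less is known of Ifitm6, a rodent member. The proteins share the CD225 domain, and the genes lie close together in a cluster. Mouse Ifitm genes are similar in sequence, and how far a probe set of 1 member also reads its relatives was not tested.

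The bases just upstream of the start site are shown for Ifitm2, the member with the widest range over the arrays, for Ifitm6, which followed it in direction, and for Ifitm1, which did not keep its groups apart. They are RefSeq sequences of assembly GRCm38.p6, each of 250 bases, written 5′ to 3′ on the strand of the gene. They were read at chr7:140955962-140956211 (minus strand) for Ifitm2, at chr7:141016893-141017142 (minus strand) for Ifitm6 and at chr7:140967826-140968075 (plus strand) for Ifitm1. Capitals mark a match to the core of the interferon-stimulated response element, GAAANNGAA, or to the GAS element, TTCNNNGAA.
Ifitm2: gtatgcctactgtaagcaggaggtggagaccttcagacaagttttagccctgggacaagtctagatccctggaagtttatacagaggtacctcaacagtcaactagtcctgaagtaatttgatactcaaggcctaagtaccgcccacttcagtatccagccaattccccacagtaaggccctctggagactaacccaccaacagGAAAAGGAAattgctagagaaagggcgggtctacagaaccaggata
Ifitm6: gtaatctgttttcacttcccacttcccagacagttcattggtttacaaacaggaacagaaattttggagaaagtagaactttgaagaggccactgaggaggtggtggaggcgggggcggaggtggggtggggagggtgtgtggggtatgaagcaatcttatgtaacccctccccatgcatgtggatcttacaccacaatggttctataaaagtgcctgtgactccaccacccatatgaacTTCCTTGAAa
Ifitm1: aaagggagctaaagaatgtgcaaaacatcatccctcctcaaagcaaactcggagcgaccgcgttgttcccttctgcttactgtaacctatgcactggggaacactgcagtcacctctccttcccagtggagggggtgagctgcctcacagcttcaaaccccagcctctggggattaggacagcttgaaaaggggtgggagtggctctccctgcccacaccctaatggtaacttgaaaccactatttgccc
The Ifitm2 match, GAAAAGGAA, lies at positions -46 to -38, counted back from the start site. The Ifitm6 match, TTCCTTGAA, lies at positions -10 to -2. The letters of neither motif are in the Ifitm1 window, which says nothing about the factors that may bind there.

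In Ifitm3 the matches lie just after the start site, in the first 30 bases of the transcript at chr7:141010715-141010744 (minus strand), shown with the response element cores in capitals.
Ifitm3 start: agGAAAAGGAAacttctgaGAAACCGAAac
Both GAAAAGGAA, at positions 3 to 11, and GAAACCGAA, at positions 20 to 28, match the core. The GAS letters TTCTGAGAA fill positions 14 to 22 and overlap the second core. Ifitm2 and Ifitm3 share the letters GAAAAGGAA, before the start site in the former and after it in the latter. Ifitm5 holds neither motif.

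Motifs were sought on both strands in all 32851 windows of the same table, from 250 bases before to 50 after the start site. The response element core was found in 8.6% of windows and the GAS element in 8.3%. CACCTG, an E-box of the type that Zeb1 binds, was found in 20.2%. Among the members, CACCTG was found in 1 of the 3 windows of Ifitm10 and in none of the windows of the other genes. These matches are a description of letters, not of sites in use.

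Levels are given on the log2 scale. Array medians lay between 6.97 and 7.16. Pairs of arrays of 1 group correlated at 0.9777 to 0.9949 across probe sets, and pairs from different groups at 0.9684 to 0.9889. Zeb1 itself read 10.52, 10.29 and 10.56 in Scr, 10.41, 10.01 and 10.34 in shZeb1_C and 9.56, 9.26 and 9.40 in shZeb1_D. It fell by 1.05 ± 0.16 (SE) in shZeb1_D (adjusted p = 0.0263, limma), whereas the shZeb1_C difference of -0.20 ± 0.16 was not called (adjusted p = 0.895). A probe set was called at a limma adjusted p under 0.05. The arrays also fell into sets of 4 (Scr 8, shZeb1_C 12, shZeb1_D 14 and shZeb1_D 15) and 5 by the first component of the spread within groups, which held 56.7% of that spread. The labels give no batch for these sets. The median level over all probe sets was 7.06, and 3 of the 12 myeloid markers exceeded it. Ptprc, a marker of white blood cells, was high at 14.40 to 15.31. Fcgr3, with means of 11.87 in Scr, 7.78 in shZeb1_C and 11.10 in shZeb1_D, also exceeded the median level. So did Mpo, with means of 7.61, 7.63 and 7.72. Spi1, Itgam, Elane, Csf1r, Cd33, Cebpa, Lyz2, Kit and Cd34 had means below it. The T-cell receptor genes Cd3e and Cd3g read 13.41 to 15.32 and 15.38 to 15.71. Of 11 T and NK cell markers, 6 had means above the median level. Cd8a, Nkg7, Klrb1c, Ncr1 and Prf1 had means below it. All 4 B-cell markers lay below the median level.

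Ifitm2 stood far higher in shZeb1_C than in the other groups. It read 11.53, 9.35 and 10.96 in Scr, 16.12, 15.34 and 15.77 in shZeb1_C, and 7.48, 11.03 and 8.12 in shZeb1_D. Every shZeb1_C array lay above all others, while the shZeb1_D arrays overlapped the Scr range and reached below it. The Scr mean was 10.61 ± 1.13 (SD, n = 3), that of shZeb1_C 15.74 ± 0.39 and that of shZeb1_D 8.88 ± 1.89. The difference of shZeb1_C from Scr was 5.13 ± 0.86 (SE), a level 35.0 times that of Scr. The difference of shZeb1_D from Scr was -1.74 ± 0.86, with overlapping arrays. Between the hairpins the difference was -6.87 ± 0.86. In bulk RNA, fewer cells making a transcript and less of it per cell cannot be told apart.

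The range of Ifitm2 over the 9 arrays, 8.64, was not exceeded by any of the 19572 named probe sets, whose median range was 0.85. Its spread within groups was also wide: the pooled SD was 1.29, against a median of 0.26, and 58 probe sets had a larger one. In shZeb1_D most of that spread came from array 14, which read 11.03 against 7.48 and 8.12. The difference between shZeb1_C and Scr ran from 4.50 to 5.59 over 10 other settings, and that between the hairpins from -7.94 to -6.05.

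Ifitm1, the member that acts at the cell surface, varied widely inside every group. It read 11.70, 8.77 and 9.90 in Scr, 10.76, 9.78 and 11.02 in shZeb1_C, and 7.32, 12.93 and 8.27 in shZeb1_D. The lowest and the highest of the 9 values were both in shZeb1_D, and the groups overlapped in all 3 comparisons. Means were 10.12 ± 1.48 (SD, n = 3), 10.52 ± 0.65 and 9.51 ± 3.0. The differences were 0.40 ± 1.30 (SE) for shZeb1_C against Scr, -0.62 ± 1.30 for shZeb1_D against Scr and -1.01 ± 1.30 between the hairpins.

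Single arrays set the sign for Ifitm1. Without Scr array 8 the shZeb1_C difference was -0.28. Without shZeb1_D array 14 the shZeb1_D difference was -2.33, and without Scr array 7 it was 0.17. Only 4 named probe sets had a larger SD within groups than the 1.97 of Ifitm1, and 35 had a wider range than its 5.61.

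Ifitm3, the endosomal member, was low on all arrays but 1. It read 6.41, 6.31 and 6.50 in Scr, 6.61, 6.37 and 9.91 in shZeb1_C, and 6.21, 6.93 and 6.38 in shZeb1_D. Array 12 of shZeb1_C stood apart, and the other 8 arrays lay between 6.21 and 6.93. The difference of shZeb1_C from Scr was 1.22 ± 0.78 (SE), and 0.08 without array 12. The difference of shZeb1_D from Scr was 0.10 ± 0.78, and that between the hairpins was -1.12 ± 0.78, or 0.02 without array 12. The mean of the stroma and osteoblast markers was also highest on array 12: over 8 genes it was 6.52 there, against 5.98 to 6.33 on the others. Of the 8 genes, 5 were highest there, where this held for 13.5% of all probe sets. Col1a1, a collagen gene, read 8.86 on array 12 and Dcn, the gene of a matrix proteoglycan, 7.21. Pdgfrb, Bglap and Alpl of the same list, at 5.92, 7.31 and 4.77 on array 12, were each higher on another array. The part of such cells in the Ifitm3 value was not tested.

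**Figure D1:**
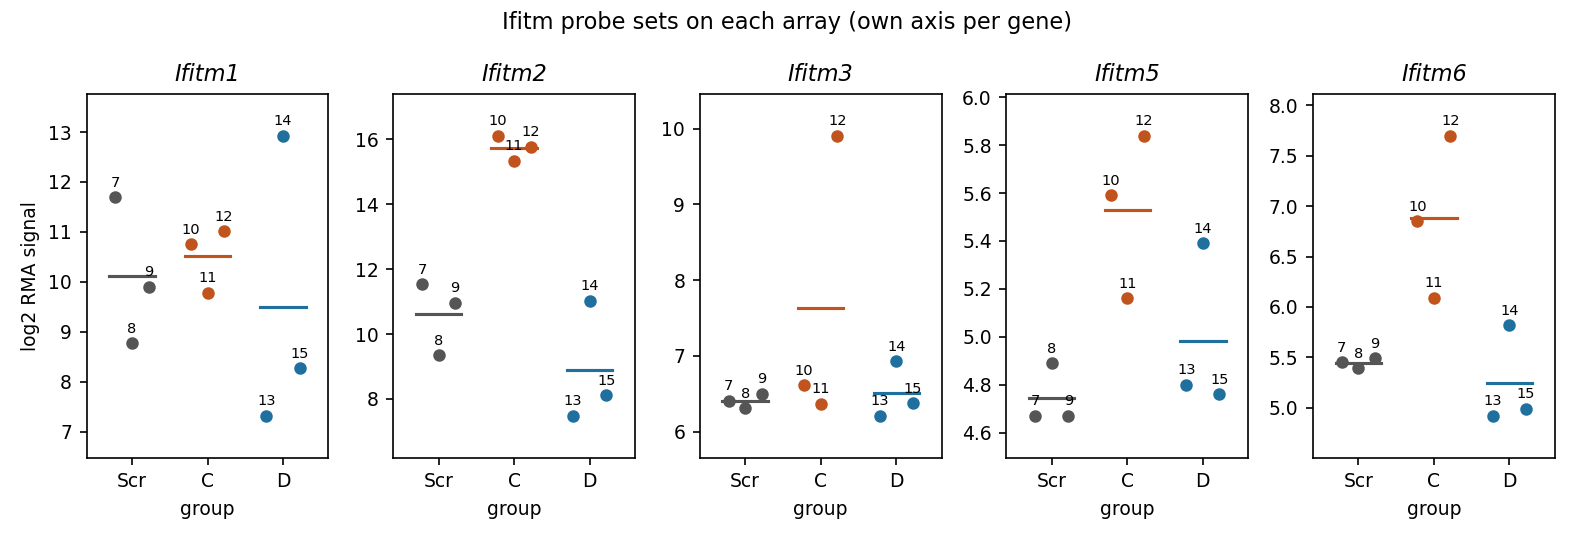
Log2 level (vertical axis) of each measured Ifitm gene on each of the 9 arrays, by group (horizontal axis; C is shZeb1_C and D is shZeb1_D), each gene with its own scale, array numbers beside the points and a bar at each group mean. Ifitm2 lies between 15.34 and 16.12 on the shZeb1_C arrays and at or below 11.53 on the rest, Ifitm3 is raised on shZeb1_C array 12 alone, and Ifitm1 spreads widely in shZeb1_D.

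Ifitm6 and Ifitm5, both below the median level of all probe sets, were higher on every shZeb1_C array than on any Scr array. Ifitm6 read 5.45, 5.39 and 5.49 in Scr, 6.85, 6.09 and 7.70 in shZeb1_C, and 4.92, 5.82 and 4.99 in shZeb1_D. Its shZeb1_C arrays also lay above all those of shZeb1_D. The difference from Scr was 1.44 ± 0.38 (SE) in shZeb1_C, a level 2.71 times that of Scr, and -0.20 ± 0.38 in shZeb1_D. Between the hairpins it was -1.64 ± 0.38. The Scr arrays of Ifitm6 differed among themselves by little, with an SD of 0.05 (n = 3), against 0.81 in shZeb1_C and 0.50 in shZeb1_D.

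Ifitm5, the osteoblast member, read 4.67, 4.89 and 4.67 in Scr, 5.59, 5.16 and 5.84 in shZeb1_C, and 4.80, 5.39 and 4.76 in shZeb1_D. Array 14 of shZeb1_D lay inside the shZeb1_C range, so these groups overlapped. The differences were 0.79 ± 0.23 (SE) for shZeb1_C against Scr, 0.24 ± 0.23 for shZeb1_D against Scr and -0.55 ± 0.23 between the hairpins. Its mean lay above only 10.9% of probe sets, and its range of 1.17 was exceeded by 5749 of them.

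Set side by side, the 5 members had median differences of 1.22 for shZeb1_C against Scr, -0.20 for shZeb1_D against Scr and -1.12 between the hairpins. All probe sets had medians of 0.00, 0.04 and 0.04 in the same order. The 1.22 and -1.12 are the differences of Ifitm3 and rest on shZeb1_C array 12. Without that array Ifitm3 differed by 0.08 and 0.02. No shift of the family as a whole is read from the medians. The comparisons of the hairpins with Scr share the Scr arrays, and the comparison of the hairpins shares arrays with both. Of the 5 members, 1 (Ifitm2) was called higher in shZeb1_C than in Scr and 0 lower, where 0.659% and 0.286% of all probe sets were called. In shZeb1_D against Scr, limma called 0 of the 5 (0 also at an unadjusted p under 0.05), where 0.399% of probe sets were called higher and 0.445% lower. Between the hairpins 1 of 5 (Ifitm2) was called lower and 0 higher in shZeb1_D, against 0.542% and 0.307%. As the members were chosen on these contrasts, nothing is read from the counts. The Ifitm2 call for shZeb1_C was lost without any 1 of the 6 Scr and shZeb1_C arrays, or without shZeb1_D array 15. The call between the hairpins was lost without shZeb1_D array 15.

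The arrays of shZeb1_C and Scr did not overlap for 3 of 5 members, where this held for 14.2% of all probe sets. For shZeb1_D against Scr it held for 0 of 5 members, against 17.0%. Between the hairpins it held for 2 of 5, Ifitm2 and Ifitm6, against 15.2%. Nothing is read from these counts either.

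**Figure D2:**
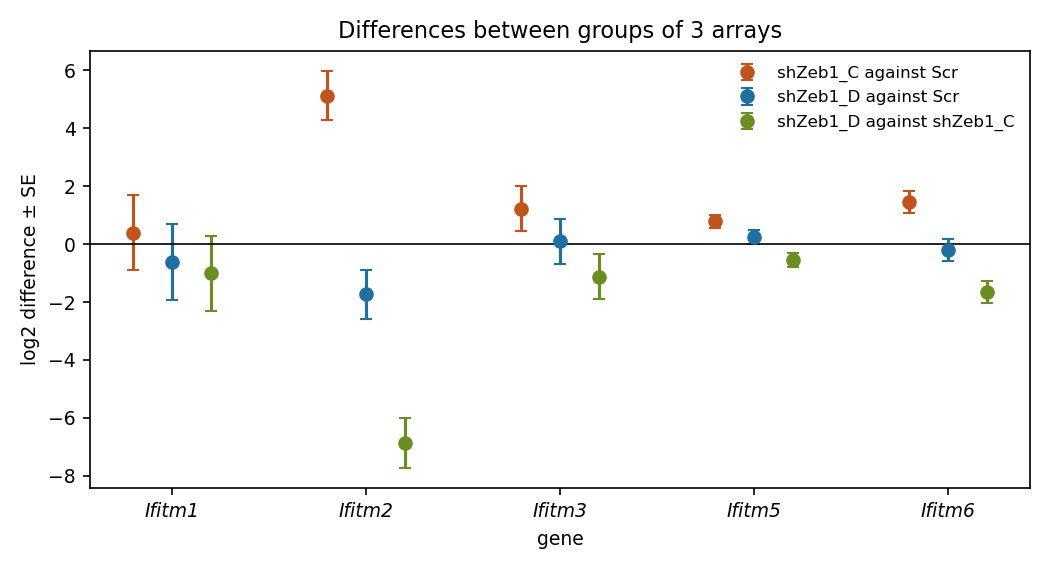
Log2 difference (vertical axis) between groups of 3 arrays for each measured Ifitm gene (horizontal axis), in 3 comparisons; error bars are the SE of the limma fit. Ifitm2 shows 5.13 for shZeb1_C against Scr and -6.87 between the hairpins, and the bars of Ifitm1 cross 0 in all 3 comparisons.

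The order of the arrays inside each group was compared over the members. Array 11 had the lowest of the 3 shZeb1_C values for 5 of 5 members, as it had for 30.2% of all probe sets. Array 14 had the highest shZeb1_D value for 5 of 5 members, against 34.8% of all probe sets. Array 13 was lowest in shZeb1_D for Ifitm1, Ifitm2, Ifitm3 and Ifitm6, against 43.4% of all probe sets, and array 15 for Ifitm5. In shZeb1_C array 12 was highest for Ifitm1, Ifitm3, Ifitm5 and Ifitm6, against 43.5% of all probe sets, and array 10 for Ifitm2. In Scr array 8 was lowest for 4 of 5 members, against 39.4% of all probe sets, but the highest array was split, with 2 members on array 7, 1 on array 8 and 2 on array 9. With array sets added to the fit as a covariate, a choice made after seeing the data, Ifitm2, Ifitm5 and Ifitm6 were called for shZeb1_C against Scr, Ifitm2 and Ifitm6 between the hairpins, and 0 members for shZeb1_D against Scr. In the same order, that fit called 875, 700 and 772 of all 19572 probe sets. The sets were taken from the spread within groups of these same arrays, so a smaller spread in that fit was built in. As the members were chosen on these contrasts, nothing is read from their calls.

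In gene order the members run Ifitm5, Ifitm2, Ifitm1, Ifitm3 and Ifitm6, with Pgghg on the side of Ifitm5 and B4galnt4 next to Ifitm6. Of the 10 nearest measured genes on each side, 20 in all, limma called 0 in each of the 3 comparisons, and 1, 3 and 6 had an unadjusted p under 0.05 in shZeb1_C against Scr, in shZeb1_D against Scr and between the hairpins. As 0.945%, 0.843% and 0.848% of all probe sets were called in these comparisons, 0 of 20 called is near the background and is no result about these genes. Of all 19572 probe sets, 1717, 2664 and 2282 had an unadjusted p under 0.05. The arrays did not overlap for 2, 5 and 9 of the 20, against 14.2%, 17.0% and 15.2% of all probe sets. The cause of the 9 between the hairpins was not tested. The median differences of the 20 were -0.07, 0.07 and 0.07 in the same order. Pkp3, the gene of a desmosomal plakophilin, had the highest of the 20 differences for shZeb1_C against Scr, 0.87, and the lowest between the hairpins, -1.75; it was singled out after its values were seen. The 20 neighbours of Ifitm10 also had 0 calls in each comparison, with 1, 5 and 2 at an unadjusted p under 0.05 and 1, 5 and 3 without overlap. Lsp1, also singled out after its values were seen, had the highest difference among them for shZeb1_C against Scr, 1.41.

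**Figure D3:**
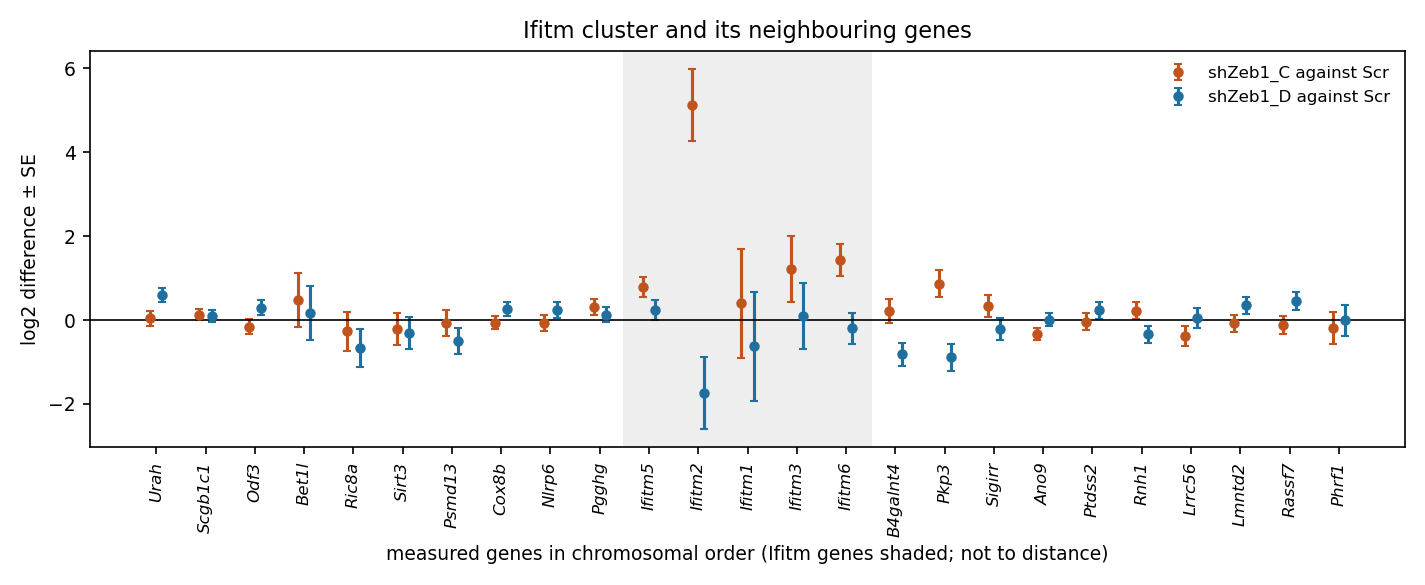
Log2 difference (vertical axis) of the genes in and around the Ifitm cluster, in the order in which the genes lie (horizontal axis), for shZeb1_C against Scr and shZeb1_D against Scr. Error bars are the SE of the limma fit. The 20 flanking genes lie between -0.37 and 0.87 for shZeb1_C against Scr, while Ifitm2 stands at 5.13.

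The other genes of the interferon pathway and of lists related to the IFITM proteins came to 112 measured, called pathway genes below. They include 14 genes of enzymes and partners of IFITM proteins and 7 CD225 relatives, which are not all interferon genes. For shZeb1_C against Scr limma called 6 higher and 0 lower, 5.36% of them, against 0.945% of all probe sets in either direction. For shZeb1_D against Scr it called 1 higher and 1 lower, 1.79% against 0.843%, and between the hairpins 0 higher and 2 lower, 1.79% against 0.848%. The lists were chosen with earlier results known, so nothing particular to them is read from these shares. The counts at an unadjusted p under 0.05 were 18, 17 and 19. Over all 19572 probe sets such counts were 1717, 2664 and 2282, which is also the background for the single lists below. Median differences were 0.13, 0.10 and -0.14.

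Of the 10 interferon ligands limma called 0 in all comparisons, with medians of -0.02, 0.16 and 0.21 for shZeb1_C against Scr, for shZeb1_D against Scr and between the hairpins; 0, 0 and 1 had an unadjusted p under 0.05. Of the 6 receptor genes, Il10rb, a subunit of the receptors for interferon lambda and interleukin-10, rose by 1.04 ± 0.19 (SE) in shZeb1_C (adjusted p = 0.0452, limma). Its shZeb1_D difference was 0.94 and was not called (adjusted p = 0.0755). The Il10rb call was lost in 12 of 18 other settings, among them each of the 9 settings that left out 1 array. Ifnar2, a chain of the type I interferon receptor, differed by 0.94 in shZeb1_C (adjusted p = 0.192). Of the 14 signalling genes 0 were called in any comparison, with 1, 3 and 1 at an unadjusted p under 0.05. Irf7, a factor that amplifies interferon production, lay between 3.79 and 4.03 on all arrays and was named for its role.

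Among the 11 nucleic acid sensors, Ddx58, which encodes the RNA sensor RIG-I, was called. It read 8.31, 8.46 and 8.79 in Scr, 10.90, 10.42 and 10.51 in shZeb1_C, and 8.91, 9.12 and 9.05 in shZeb1_D. Every shZeb1_C array lay above every other array. Ddx58 rose by 2.09 ± 0.18 (SE) in shZeb1_C (adjusted p = 0.00144, limma) and fell by 1.58 ± 0.18 from shZeb1_C to shZeb1_D (adjusted p = 0.00665). Both calls were kept in all 18 other settings.

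Of 43 further genes that interferon induces, limma called 4 higher and 0 lower in shZeb1_C, 9.30% of the list against 0.945% of all probe sets. The list median was 0.22. Ifi27, a mitochondrial protein gene, rose by 2.99 ± 0.49 (SE; adjusted p = 0.0263, limma), from 9.36, 11.16 and 10.87 in Scr to 13.51, 13.03 and 13.82. Cmpk2, a nucleotide kinase gene, rose by 2.44 ± 0.29 (adjusted p = 0.00798), from 4.65, 4.67 and 4.50 to 6.41, 7.11 and 7.63, with its Scr levels below the median of all probe sets. Trim30a, a regulator of innate signalling, rose by 1.78 ± 0.33 (adjusted p = 0.0471). In shZeb1_D Ifi27 read 11.26, 12.50 and 12.26 and Cmpk2 5.55, 5.94 and 5.27, all above their Scr arrays but not called. Trim30a read 9.53, 10.28 and 9.30 in shZeb1_D and overlapped Scr. Lgals9, which encodes galectin-9, rose by 1.39 ± 0.18 in shZeb1_C (adjusted p = 0.0107) and by 1.19 ± 0.18 in shZeb1_D (adjusted p = 0.0230). Its Scr arrays read 9.36, 9.64 and 9.25, and all 6 hairpin arrays read between 10.44 and 11.07. Lgals9 was the 1 gene of this list called in shZeb1_D, and 0 were called between the hairpins, where 8 had an unadjusted p under 0.05.

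These calls rested on single arrays to differing extents. Without Scr array 9 the calls of Cmpk2, Ifi27, Trim30a and Lgals9 for shZeb1_C against Scr were all lost, and 1 of the 112 pathway genes stayed called against 6. Without shZeb1_C array 11 or shZeb1_D array 15 it was 3. The Ifi27 call was also lost without any 1 shZeb1_C array or without shZeb1_D array 15. Trim30a lost its call in 11 of 18 other settings. The Lgals9 call in shZeb1_D was lost in 6, among them those without Scr array 7, Scr array 9, shZeb1_D array 14 or shZeb1_D array 15.

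**Figure D4:**
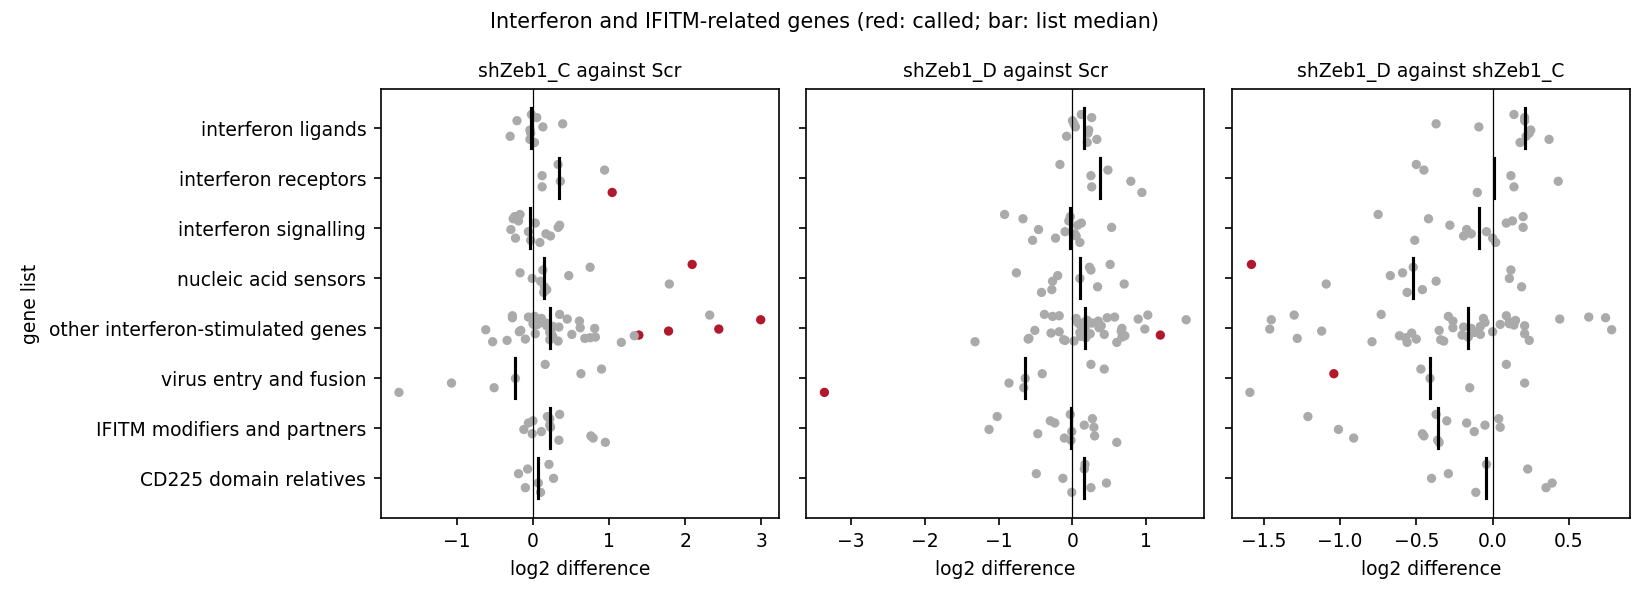
Log2 difference (horizontal axis) of each measured gene of the 8 interferon and Ifitm-related lists (vertical axis) in the 3 comparisons, 1 point a gene, red where called; black bars are list medians and the horizontal scales differ between panels. Most points lie near 0, and the highest red point for shZeb1_C against Scr is Ifi27 at 2.99.

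Among 7 other genes that restrict virus entry and membrane fusion, limma called 0 for shZeb1_C against Scr, where 3 had an unadjusted p under 0.05. Ncoa7, which has an interferon-induced form that hinders virus entry, read 10.52, 10.92 and 11.11 in Scr, 8.58, 8.67 and 10.01 in shZeb1_C, and 7.68, 7.79 and 7.01 in shZeb1_D. It fell by 3.36 ± 0.38 (SE) in shZeb1_D (adjusted p = 0.00856, limma), a call lost without Scr array 9 or shZeb1_D array 15. Its shZeb1_C difference was -1.76 (adjusted p = 0.0830). Ly6e, a surface protein gene with antiviral activity, read 15.63, 15.48 and 15.83 in Scr, 16.38, 16.09 and 16.37 in shZeb1_C, and 15.41, 15.11 and 15.19 in shZeb1_D. It fell by 1.04 ± 0.16 from shZeb1_C to shZeb1_D (adjusted p = 0.0214), and neither hairpin was called against Scr (differences of 0.63 and -0.41, adjusted p = 0.148 and 0.314). The Ly6e call was lost without shZeb1_C array 10 or 12, or without shZeb1_D array 14 or 15.

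The 14 genes of enzymes and partners that modify or bind IFITM proteins had 0 calls in any comparison by limma, and 0 at an unadjusted p under 0.05. Of these, only Cd9, Cd81 and Fkbp11 were highest on shZeb1_C array 12, as held for 13.5% of all probe sets. They read 9.69, 9.35 and 8.49 there, against 7.12 to 7.77, 7.37 to 8.14 and 5.48 to 6.91 on the other arrays. They were singled out after their values were seen, and the cause was not tested. The 7 measured CD225 relatives also had 0 calls in any comparison, with 0, 2 and 1 at an unadjusted p under 0.05. Ifitm7, the relative nearest in name and named for that reason, lay between 7.42 and 8.10 on all arrays, with differences of 0.21, 0.17 and -0.04.

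A few T and NK cell markers were high on the same arrays as Ifitm2. The mean over 11 genes was 8.07 to 8.34 on the Scr arrays, 8.96 to 9.43 on the shZeb1_C arrays and 8.17 to 8.42 on the shZeb1_D arrays, and 6 of the 11 exceeded the median level. Of the 11, limma called 2 higher (18.2%) and 0 lower in shZeb1_C than in Scr, against 0.659% and 0.286% of all probe sets. The list median was only 0.10, so the mean was carried by a few genes. Of the T-cell receptor complex genes, Cd3d differed by -0.94 and Cd247 by -0.30, neither called, and Cd3e and Cd3g differed by 0.27 and 0.04. Nkg7, a gene of cytotoxic granules, read 4.49, 4.32 and 4.94 in Scr, 9.11, 9.79 and 12.65 in shZeb1_C, and 4.63, 6.12 and 4.81 in shZeb1_D. Gzmb, which encodes granzyme B, read 6.41, 5.75 and 6.02 in Scr, 11.09, 8.78 and 11.31 in shZeb1_C, and 5.97, 6.79 and 6.04 in shZeb1_D. For both genes every shZeb1_C array lay above all others. Prf1 and Ncr1, of the same list, had means of 5.32 and 4.69 in Scr and 5.22 and 4.77 in shZeb1_C. Klrb1c had means of 5.58 and 7.10. Among the 12 myeloid markers 1 was called in shZeb1_C, Fcgr3, an Fc receptor gene, which fell by 4.10 ± 0.19 (SE). The other 11 were not called, and the list median was 0.07. The part of such cells in the Ifitm values was not tested.

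The genes whose levels were most like each member over the 9 arrays were taken from 9402 genes above the median level. Likeness was Pearson's r, and the arrays share groups, so r is a description. For Ifitm2 these were Cd7, Cap2, Tgfbr3, Lax1 and Bmi1, with r from 0.95 to 0.96. Cd7, a surface protein of lymphocytes, read 12.54, 12.17 and 12.59 in Scr, 14.85, 15.04 and 15.52 in shZeb1_C, and 10.95, 13.15 and 12.28 in shZeb1_D. Lax1, a lymphocyte signalling adaptor, read 10.85 to 11.02 in shZeb1_C and at most 8.31 elsewhere. For Ifitm6 they were Acvr2a, an activin receptor, Klra7 and the Bcl2-related genes Bcl2a1a, Bcl2a1b and Bcl2a1d, with r of 0.96 to 0.97. The Bcl2a1 genes are near-identical copies, so their probe sets may share signal.

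For Ifitm5 the most alike were Mtap, Cd200r2, Trim30a, Sp110 and Ctla2a, with r of 0.94 to 0.97. Trim30a and Sp110 are themselves interferon-stimulated genes. For Ifitm1 they were Lrit1, Umps, Nop9, Nek6 and Ntsr2, with r of 0.85 to 0.86. For Ifitm3 they were Tceal9, Cd63, Igfbp7, Cpe and Mgp, with r of 0.96 to 0.99 but Spearman's rho of only 0.20 to 0.67. Cpe, a carboxypeptidase of hormone-secreting cells, read 14.22 on shZeb1_C array 12 and 6.72 to 7.72 on the other arrays. Cd63, a tetraspanin of endosomes, read 13.26 there and 7.48 to 8.01 on the others. All 5 genes were highest on array 12, so these coefficients rest on that array.

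**Figure D5:**
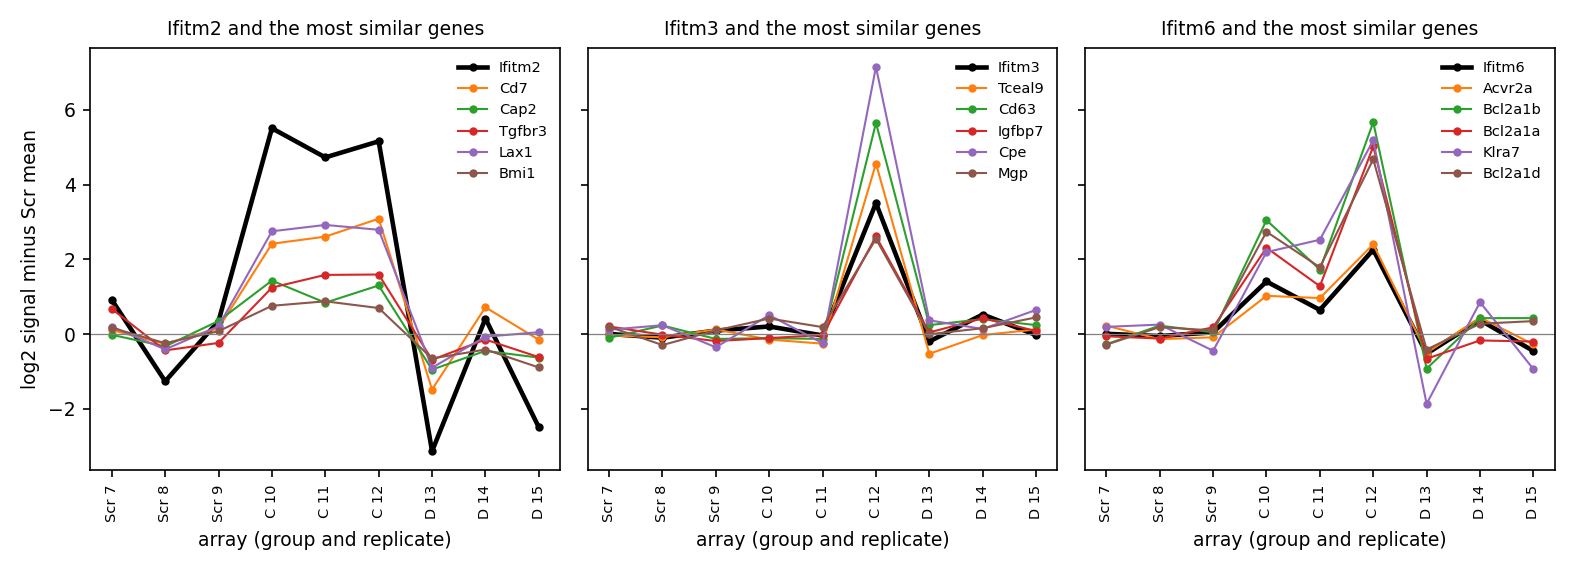
Log2 level minus the Scr mean (vertical axis) of Ifitm2, Ifitm3 and Ifitm6 and of the 5 genes most like each, on the 9 arrays (horizontal axis). The genes like Ifitm2 are high on all 3 shZeb1_C arrays, whereas those like Ifitm3 are high on shZeb1_C array 12 alone. The log2 level of Cpe on that array, before the Scr mean is taken off, is 14.22.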

How the data were processed

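RMA and the Transcriptome Analysis Console are the tools in the submitters' processing notes, which give no versions. No genome build is given in the sources used here. The authors deposited linear array signals from which the decimal point is missing. For each of the 199854 cells 1 place of the point made its log2 a multiple of 0.01 within 1e-06 steps, and that log2 value was used.

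Probe sets were named through the platform annotation and a RefSeq table (GRCm38.p6): 19572 had 1 symbol and were tested, 0 had several and 2634 are unnamed here. limma 3.58.1 in R 4.3.3 was fitted with a mean per group over all 9 arrays, with Benjamini-Hochberg adjustment within each comparison, and called probe sets at an adjusted p under 0.05. The limma step was run on simulated data with independent noise. Such noise lacks the component shared by these arrays, so the run does not show how calling behaves under it. Other settings covered dim probe sets, probe sets per gene, normalization, the variance prior, array weights, the arrays in the fit, the threshold and leaving out each array. Array sets as a covariate were added after seeing the data and are counted among the other settings. They were drawn from the spread within groups of the same arrays, so calls kept or gained in that fit are no support.

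Named genes were the members, called list genes (at most 6 per list and comparison), and the 5 genes most correlated with each member, leaving out predicted, olfactory, vomeronasal, micro-RNA and snoRNA genes. Members and lists were chosen with earlier results of these data known. No pair of arrays held identical columns. The number of arrays limits the precision.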

Additional observations from a re-analysis of the deposited data

Results flagged for a closer look

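Each difference given here is a level in shZeb1_D minus that in shZeb1_C, and was picked out because the effects of the hairpins differed in the direct limma comparison between them. Ddx58 differed by -1.58 and Ly6e by -1.04. Among cell type markers Nkg7 differed by -5.33, Gzmb by -4.13 and Fcgr3 by 3.32. Ifitm2 differed by -6.87, as a description only, since it was chosen on this contrast. With 3 arrays in each group, no array was tested as an outlier of its group. Yet shZeb1_C array 12 stood apart for some genes: Ifitm3 read 9.91 there, against 6.61 and 6.37 on arrays 10 and 11.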

How the results depend on the processing

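Counts are given in the order shZeb1_C against Scr, shZeb1_D against Scr, shZeb1_D against shZeb1_C, where limma called 185, 165 and 166 of all probe sets, 6, 2 and 2 of the pathway genes and 0, 0 and 0 of the genes beside the Ifitm genes. With array weights these were 572, 1076 and 833 probe sets, 12, 5 and 6 pathway genes, and 1, 2 and 4 neighbours. With array sets as a covariate, a setting chosen after seeing the data, they were 875, 772 and 700 probe sets and 16, 5 and 10 pathway genes. The neighbours were 1 in shZeb1_D against Scr and 4 between the hairpins. As the sets came from the spread of these same arrays, the higher counts are no support. At an adjusted p under 0.1 they were 316, 300 and 313 probe sets, with 10 and 4 pathway genes against Scr, and 1 and 2 neighbours in the comparisons with shZeb1_D. With only the groups compared in the fit, shZeb1_D against Scr gave 68 probe sets, the hairpins 81, and the pathway genes 3, 1 and 1. A trended, robust prior left 1 pathway gene in shZeb1_D against Scr, and quantile normalization again, or only probe sets above the median level, gave 1 neighbour between the hairpins. Leaving out 1 array gave 43 to 214, 14 to 213 and 49 to 162 probe sets, 1 to 5, 0 to 3 and 1 to 2 pathway genes, and 0 to 1 neighbours for shZeb1_C against Scr and 0 to 2 between the hairpins. The fewest probe sets were called without Scr array 9 in both comparisons with Scr (43 and 14) and without shZeb1_D array 15 between the hairpins (49). The causes were not tested.

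Differences of Ifitm2, Ifitm5 and Ifitm6 kept their sign in all comparisons over 10 other settings, as did Ifitm3 for shZeb1_C against Scr. Ifitm1 kept it in 8, 6 and 8 of them, and Ifitm3 in 7 for shZeb1_D against Scr and 9 between the hairpins. No member had more than 1 probe set, so another probe set gave no value. No paired analysis was possible because the replicate numbers, 7 to 15, are not shared between groups. Ifitm3, Ifitm5 and Ifitm6 lay below the median level, where low signal limits what can be read.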
